A study of Gallus gallus with 6 samples.

Results

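Enterocytes of the small intestine take up fatty acids, monoacylglycerol and sterols from the gut lumen and join them again into triglycerides and cholesteryl esters. A set of 10 genes that carry out these steps was described in the ileum, the segment of the small intestine before the large intestine, of chickens given a probiotic. The genes were chosen by symbol for their known roles: the fatty acid binding proteins FABP1 and FABP2, the fatty acid receptor CD36, the sterol importer gene Npc1l1, the sterol exporter genes ABCG5 and ABCG8, and the acyltransferase genes MOGAT2, DGAT1, DGAT2 and SOAT2. Of the 10, 8 had a row among the 17623 genes of the table; DGAT1 and SOAT2 were not analysed here. Each of the 8 symbols had 1 row. The choice of the 10 genes was made with earlier results of these data known.

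The birds were male Taiping chickens aged 2 months on a corn and soybean basal diet. The 3 libraries of the control group (CT) came from birds on that diet alone, with 0 mL of probiotic, and the 3 libraries of the probiotic group (MP) from birds that also received 2 mL of probiotic per litre of drinking water. The labels name neither the strains in the probiotic nor the length of supplementation. The comparison asks how ileal expression differs between supplemented and unsupplemented birds.

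Each value below is the authors' mean of the 3 libraries of a group, in FPKM (fragments scaled to transcript length and to sequencing depth) or in counts. No standard deviation can be derived from such means, so the spread between birds is unknown and no test was possible. Mean library totals were 17150865 counts for CT and 15928865 for MP. Differences are MP minus CT on the log2(FPKM + 1) scale, on which differences of genes with low values come out too small, and a gene is counted as different from 1.5-fold on that scale. A ratio of counts scaled to the library totals is given with its exact 95% interval (Clopper-Pearson), which covers counting error only. That interval excluded a ratio of 1 for 71.9% of the 9913 genes that reached FPKM 5 in either group, so excluding 1 did not set a gene apart from most genes.

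Fat absorption runs through a short series of steps. Pancreatic lipase splits dietary triglyceride into fatty acids and 2-monoacylglycerol, which enter the enterocyte and are bound by carrier proteins in the cytosol. Enzymes of the endoplasmic reticulum rebuild triglyceride, mainly from monoacylglycerol during a meal, and the fat leaves in apolipoprotein B particles, which in birds enter the portal blood. Most roles named below were worked out in mammals.

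Npc1l1, MOGAT2 and ABCG8 were higher in the MP mean than in CT, by 0.78, 0.52 and 0.39 in log2. The abundant carriers FABP1 and FABP2 lay within 0.1 of CT, and CD36, ABCG5 and DGAT2 were lower by small steps. Npc1l1 alone passed 1.5-fold, 1 gene higher and 0 lower. Among all 9913 genes 4.10% passed 1.5-fold, 2.56% higher and 1.53% lower, and a count of 1 in 8 is too small to be read against that share. None of the 8 passed 2-fold, against 1.05% of all genes. The 8 genes had a median difference of -0.02, with 4 higher and 4 lower. The median of all 9913 genes was -0.07, with quartiles at -0.20 and 0.10; 37.8% of them were higher in MP and 62.2% lower. The summed FPKM of the 8 genes was 1958 in CT and 1959 in MP.

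All 8 genes had FPKM of at least 5 in both groups, and their levels spanned a wide range. The highest, FABP1, was 177 times the lowest, ABCG8, in CT and 132 times in MP. From high to low the order was FABP1, FABP2, MOGAT2, ABCG5, CD36, DGAT2, Npc1l1 and ABCG8, in CT and again in MP. Most neighbours in this order were separated by more than counting error. The place of Npc1l1 rests on a short assembled locus, described below. Npc1l1 and ABCG8 were not separated in CT, where the counting intervals of their levels (exact Poisson) ran from 5.84 to 8.24 and from 5.73 to 6.72.

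**Figure D1:**
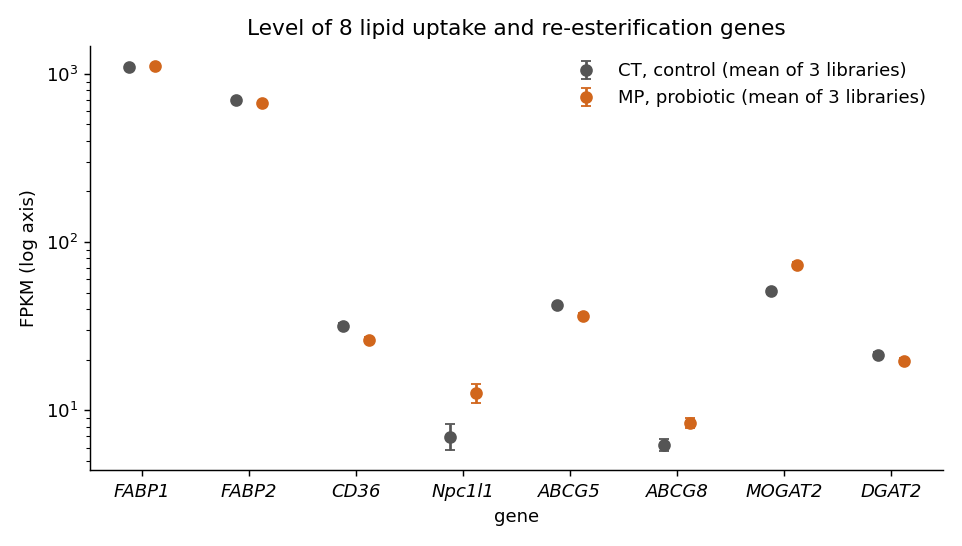
Level of the 8 genes in FPKM (log axis) in CT (grey) and MP (orange); each point is the authors' mean of 3 libraries, and the bar is the exact 95% Poisson interval of counting error, not the spread between birds. FABP1 and FABP2 stand far above the other 6 genes in both groups, and the points of Npc1l1, ABCG8 and MOGAT2 lie higher in MP.

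FABP1, the liver-type fatty acid binding protein that is also made in enterocytes, had FPKM 1099 in CT and 1112 in MP. It ranked 46th of 17623 genes in CT and 55th in MP. Scaled to depth, its counts gave a ratio of 1.01 (0.991 to 1.02), the only interval of the 8 that held 1. FABP2, the intestinal fatty acid binding protein, had 699 in CT and 670 in MP (-0.06 in log2), with a count ratio of 0.971 (0.955 to 0.986). The direction of both depended on the scaling. FABP1 lay at 0.02, but at -0.04 with equal FPKM totals and at -0.07 when epithelial markers were set to 0. FABP2 turned to 0.01 with median-of-ratios scaling.

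Together FABP1 and FABP2 held 91.9% of the summed FPKM of the 8 genes in CT and 91.0% in MP. The ratio of FABP1 to FABP2 was 1.57 in CT and 1.66 in MP. Against the wider family the picture differed, because FABP6, the ileal bile acid binding protein, was higher than either of them and lower in MP (4081 in CT and 2669 in MP). Among the 7 family members FABP1 to FABP7, FABP1 and FABP2 held 29.1% of the summed FPKM in CT and 38.0% in MP. The FPKM ratio of FABP6 to FABP1 was 3.71 in CT and 2.40 in MP.

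CD36, a scavenger receptor that binds long-chain fatty acids, had FPKM 31.9 in CT and 26.3 in MP. The difference was -0.27 in log2 and the count ratio 0.834 (0.794 to 0.876). It was negative under all 7 alternative scalings and pseudocounts, from -0.35 to -0.20. CD36 is also made by endothelial cells, macrophages and fat cells. All 8 endothelial marker genes were lower in MP, with a summed FPKM of 144 in CT and 118 in MP. Of 8 adipocyte genes, 7 were lower. Among all 9913 genes 62.2% were lower. The summed FPKM of the adipocyte genes was 1662 and 1665, mostly from CFD (1248 and 1402), the highest of them, while THRSP went from 71.3 to 28.9 and FABP4 from 161 to 95.3. Of 5 macrophage genes with FPKM of at least 5, 3 were higher and 2 lower, and the sum over all 7 was 249 and 254. No marker of these 3 lists that had a row was at 0 in either group. In a piece of ileum, fewer cells of a type and less RNA per cell cannot be told apart. The part of these cell types in the CD36 value was not tested.

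The sterol genes split in direction. Npc1l1, whose protein brings cholesterol and plant sterols into the enterocyte from the brush border and is the target of the drug ezetimibe, had FPKM 6.96 in CT and 12.6 in MP. Scaled to depth, its counts gave a ratio of 1.80 (1.45 to 2.24). The difference of 0.78 in log2 stood at percentile 98.6 of the 9913 genes.

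The value of Npc1l1 rests on few reads. Over 3 libraries it had 136 reads in CT and 227 in MP, the fewest of the 8 genes. The row is an assembled locus, MSTRG.3462, described by its match to a predicted goose protein, and has no chicken gene number in the table. Its count divided by its FPKM and the depth gave an effective length of 380 bases in CT and 376 in MP, the shortest of the 8 genes. For FABP1, a short transcript, the same quotient was 524 bases, and for the sterol exporter genes 1882 (ABCG5) and 1931 (ABCG8). Whether the locus covers the whole Npc1l1 gene was not checked, so its FPKM may be that of a part. A mean count under 100, as Npc1l1 has, was found for 244 genes past the minimum FPKM, which either group could meet. Of these, 20.5% passed 1.5-fold, and 18.0% did so on the higher side. Entry through the higher group alone can raise such shares, whereas Npc1l1 met the minimum in both groups. The shares therefore do not give the rate to be expected from few reads. Npc1l1 lay below 1.5-fold with a pseudocount of 5 (0.56) and above it under the other alternatives.

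ABCG5 and ABCG8 code for the partner subunits of a transporter that pumps plant sterols and cholesterol back into the gut lumen; neither subunit works alone. In the RefSeq gene order of chicken (assembly GRCg7b) they are neighbours, with 0 protein-coding genes between them. ABCG5 had FPKM 42.2 and 36.4 in CT and MP, a difference of -0.21 and a count ratio of 0.873 (0.833 to 0.914). ABCG8 had 6.21 and 8.42, a difference of 0.39 and a count ratio of 1.37 (1.23 to 1.52). The partners thus lay on opposite sides of CT, under each of the 7 alternatives too: ABCG5 from -0.29 to -0.13 and ABCG8 from 0.26 to 0.45.

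Per transcript length, ABCG5 was more abundant than ABCG8 in both groups. The FPKM ratio of ABCG5 to ABCG8 was 6.79 in CT and 4.33 in MP. The ratio of these ratios, from counts, was 0.638, with an exact conditional interval of 0.568 to 0.717 for counting error. The pairs were not in the written plan, and their genes were chosen with earlier results of these data known. A higher gene set against a lower gene gives such a ratio away from 1, so nothing more is read from the pair intervals. Import and export genes could be set side by side in the same way. The FPKM ratio of Npc1l1 to ABCG5 was 0.165 in CT and 0.347 in MP, a 2.06-fold difference in counts (1.65 to 2.58). Against ABCG8 the same comparison gave a 1.31-fold difference in counts (1.03 to 1.68). Npc1l1 was read from a short assembled locus, and whether that locus covers the whole gene was not checked. Its level relative to the exporter genes is therefore uncertain in both groups.

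**Figure D2:**
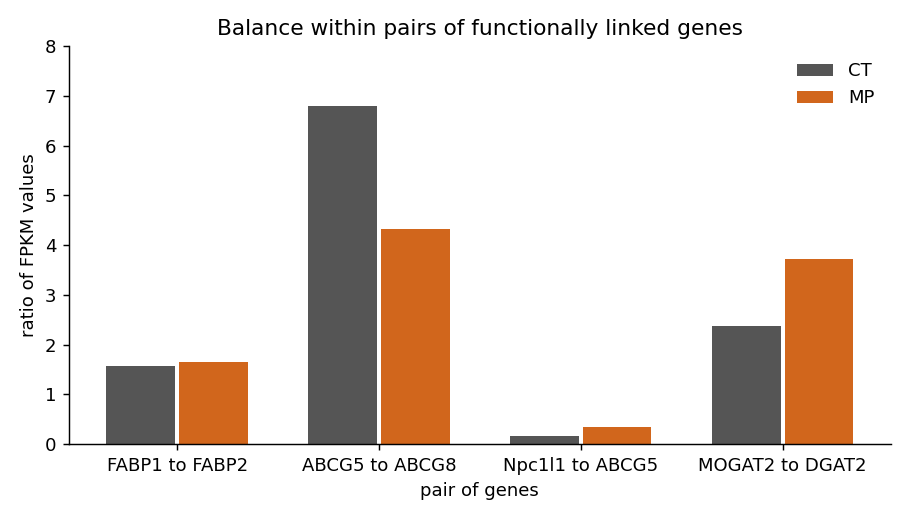
Ratio of FPKM values within 4 pairs of genes in CT (grey) and MP (orange), each from the authors' group means, so that no spread between birds can be drawn. The bars of ABCG5 to ABCG8 go from 6.79 to 4.33 and those of MOGAT2 to DGAT2 from 2.38 to 3.72, while FABP1 to FABP2 stays near 1.6.

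MOGAT2 makes diacylglycerol from 2-monoacylglycerol, the first step of triglyceride synthesis after a meal. It had FPKM 50.95 in CT and 73.3 in MP, with 2646 reads in CT and 3528 in MP. The difference was 0.52 in log2, at percentile 96.7 of the 9913 genes, and the count ratio was 1.44 (1.36 to 1.51). It ranked 1668th of 17623 genes in CT and 1121st in MP. It lay under 1.5-fold as measured and at 0.59, just past it, with median-of-ratios scaling. A gene without a symbol that is described as like MOGAT2 (ENSGALG00000049686) was far lower, at 1.36 in CT and 0.827 in MP, and MOGAT1, which has the same activity, lay at 0.997 and 1.10. Both were chosen after their values were seen. How reads shared by such related genes were counted is not stated in the labels.

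DGAT2 adds the last fatty acid to diacylglycerol, a step that DGAT1 also carries out. DGAT2 had FPKM 21.4 and 19.7 in CT and MP, a difference of -0.11 and a count ratio of 0.925 (0.874 to 0.979). MOGAT2 and DGAT2 are also neighbours in the RefSeq gene order, with 0 protein-coding genes between them, and belong to a common enzyme family. The FPKM ratio of MOGAT2 to DGAT2 was 2.38 in CT and 3.72 in MP, a 1.55-fold difference in counts (1.44 to 1.68). This pair too was outside the written plan and set a higher gene against a lower gene, so nothing more is read from its interval. DGAT2 is made in fat cells as well. Of their 8 markers 7 were lower in MP, where 62.2% of all genes were lower. The most abundant marker, CFD, was higher (1248 in CT and 1402 in MP). The summed FPKM of the 8, 1662 in CT and 1665 in MP, came mostly from CFD. The part of fat cells in the DGAT2 value was not tested.

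**Figure D3:**
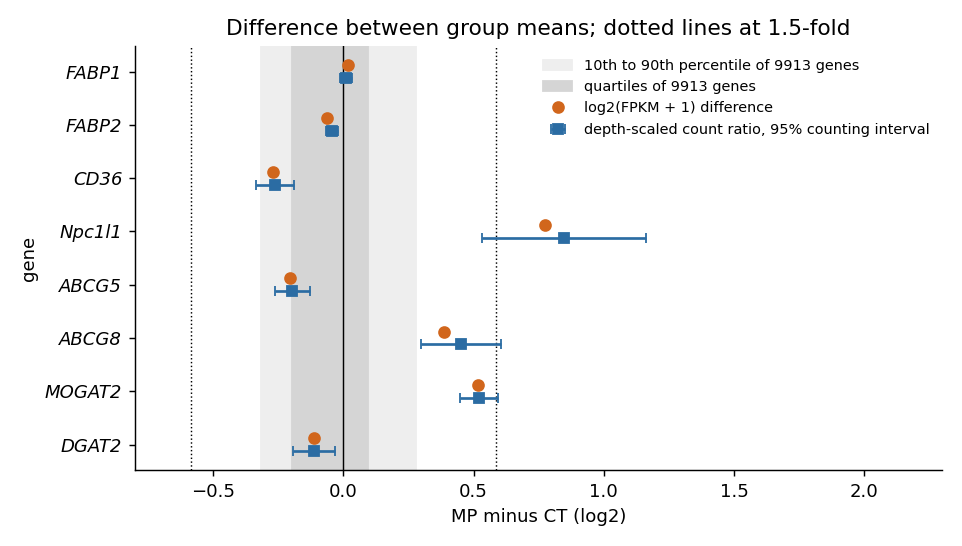
Difference MP minus CT for the 8 genes (log2): orange points are log2(FPKM + 1) differences, and blue squares are depth-scaled count ratios with 95% counting intervals. Grey bands are the quartiles (dark) and the 10th to 90th percentiles (light) of 9913 genes, and dotted lines mark 1.5-fold; Npc1l1, MOGAT2 and ABCG8 lie to the right of the bands and the other 5 points within them.

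Some annotation was shared beyond the pairs. The most widely shared terms were general ones of the membrane, with 5 of the 8 genes. The term membrane alone was given for 4180 of the 17623 genes. Lipid binding, a term of 93 genes, was given for FABP1, FABP2 and CD36. Cholesterol homeostasis, a term of 54 genes, was given for ABCG5, ABCG8 and DGAT2. Pathways were shared as follows. FABP1, FABP2 and CD36 were listed under PPAR signalling, a pathway of nuclear receptors for fatty acids. Its other 56 genes included 45 with FPKM of at least 5, of which 19 were higher and 26 lower in MP (median -0.12), with 1 at least 1.5-fold higher and 4 lower. MOGAT2 and DGAT2 were listed under glycerolipid metabolism, where 34 other genes at that level had 11 higher and 23 lower (median -0.09), with 2 at least 1.5-fold higher and 1 lower. ABCG5 and ABCG8 were listed under ABC transporters, where 26 others had 7 higher and 19 lower (median -0.11) and 0 past 1.5-fold. Over all 9913 genes 62.2% were lower, the median was -0.07 and 4.10% passed 1.5-fold. These 3 pathway sets were looked up after the values had been seen, and nothing is read from their counts.

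The neighbouring steps of fat absorption were described from 9 further lists of genes, 80 of them distinct with FPKM of at least 5. Of these, 7 were at least 1.5-fold higher, 6 at least 1.5-fold lower, and the median was -0.08. The lists were drawn up with results of these data known, so nothing is read from their shares of lower genes or of genes past 1.5-fold, which over all genes were 62.2% and 4.10%. The split over all genes depended on the scaling. As deposited, 62.6% of the genes past 1.5-fold were higher in MP (254 against 152). Median-of-ratios scaling made that share 75.3%, and it was 47.0% with equal FPKM totals and 41.4% with epithelial markers set to 0. With library totals it was 51.4%, but over 11219 genes, because that setting used counts without length scaling. The share with library totals thus mixes the scaling with a change of genes and of unit.

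Before re-esterification, fatty acids are joined to coenzyme A. Of 8 genes of fatty acid import and activation, 3 were higher and 5 lower, 0 passed 1.5-fold, and the median was -0.20. The highest of them was DBI, the acyl-CoA binding protein, at FPKM 107 in CT and 135 in MP (0.34). The glycerol 3-phosphate route makes diacylglycerol without monoacylglycerol. Of its 6 genes, 2 were higher and 4 lower (median -0.06). AGPAT2, which makes phosphatidic acid, was the most abundant and passed 1.5-fold, with FPKM 50.8 for CT and 95.2 for MP (0.89) and a count ratio of 1.89 (1.83 to 1.95). Its FPKM was close to that of MOGAT2 in CT, with a ratio of 0.997, and was 1.30 times that of MOGAT2 in MP.

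Among 6 other acyltransferases 1 was higher and 5 lower (median -0.16), with 0 past 1.5-fold. The higher one was LPCAT3, which places polyunsaturated fatty acids in phosphatidylcholine, at 39.4 in CT and 47.8 in MP. Of 11 genes of lipoprotein assembly and export, 6 were higher and 5 lower (median 0.05). The 3 past 1.5-fold were all higher, a side on which 2.56% of all genes passed, and nothing is read from that count. They were APOA4 (FPKM 41.2 and 111) and APOA1 (806 and 1573), which code for apolipoproteins, and TM6SF2 (20.1 and 31.1). TM6SF2 codes for a membrane protein needed to load lipoproteins with lipid. TM6SF2, at 0.60, was under 1.5-fold with equal FPKM totals, a pseudocount of 5 or epithelial markers set to 0, where 2 genes of the list passed.

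Of 11 genes of the lipid droplet and of lipolysis, 10 were lower and 1 higher in MP, where 62.2% of all genes were lower. Among them 4 were at least 1.5-fold lower, where the share over all genes was 1.53%, and the median was -0.32. The list was drawn up with results of these data known, so nothing is read from these shares. The lowest differences were those of PNPLA3, a lipid droplet hydrolase (13.4 in CT and 7.21 in MP), G0S2, an inhibitor of triglyceride lipolysis (33.3 and 19.2), and PLIN1, a coat protein of droplets in fat cells (42.4 and 24.9). PLIN4, the most abundant, lay at 106 and 104. PLIN1 and CIDEC of this list are also on the adipocyte list, whose median was -0.33, and the part of fat cells in these values was not tested.

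Among 13 other genes of sterol handling, 6 were higher and 7 lower (median -0.07). SCARB1, a receptor for high-density lipoprotein that also moves sterols in enterocytes, lay at FPKM 9.57 and 14.9. Its difference of 0.59 was under 1.5-fold with equal FPKM totals, library totals, a pseudocount of 5 or epithelial markers set to 0. NPC2, a lysosomal cholesterol carrier, was the most abundant at 105 and 116. Of 6 other lipid binding proteins, RBP2, the retinol carrier of enterocytes, went from 134 to 355 (1.40), while FABP4, of fat cells, and FABP6 were at least 1.5-fold lower. With median-of-ratios scaling 1 of these was still past 1.5-fold lower. Over all genes 62.2% were lower, while 2.56% passed 1.5-fold higher and 1.53% lower. Nothing is read from the counts of these lists, which were drawn up with results of these data known.

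Of 18 transcription factor genes of lipid absorption, 8 were higher and 10 lower (median -0.03), with 0 past 1.5-fold; CDX1, an intestinal factor, was the most abundant at 109 and 122.5. With library totals, no minimum or a minimum FPKM of 1, 1 gene of this list was at least 1.5-fold higher. It was GATA4, a factor of the upper small intestine, below the minimum of 5 with FPKM 0.423 and 2.31, a difference of 1.22; it was named after its values were seen. Of 6 genes of lipases and related proteins, most of them of the gut lumen, 5 had FPKM under 1 in both groups. The other was ENPP7, the alkaline sphingomyelinase of the brush border, at 27.7 in CT and 106 in MP. Pancreatic acinar markers were under FPKM 1 in both groups for 9 of 9 genes, and hepatocyte markers for 7 of 9. The exceptions were FGG (2.19 and 11.2) and TF (25.9 and 20.7).

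**Figure D4:**
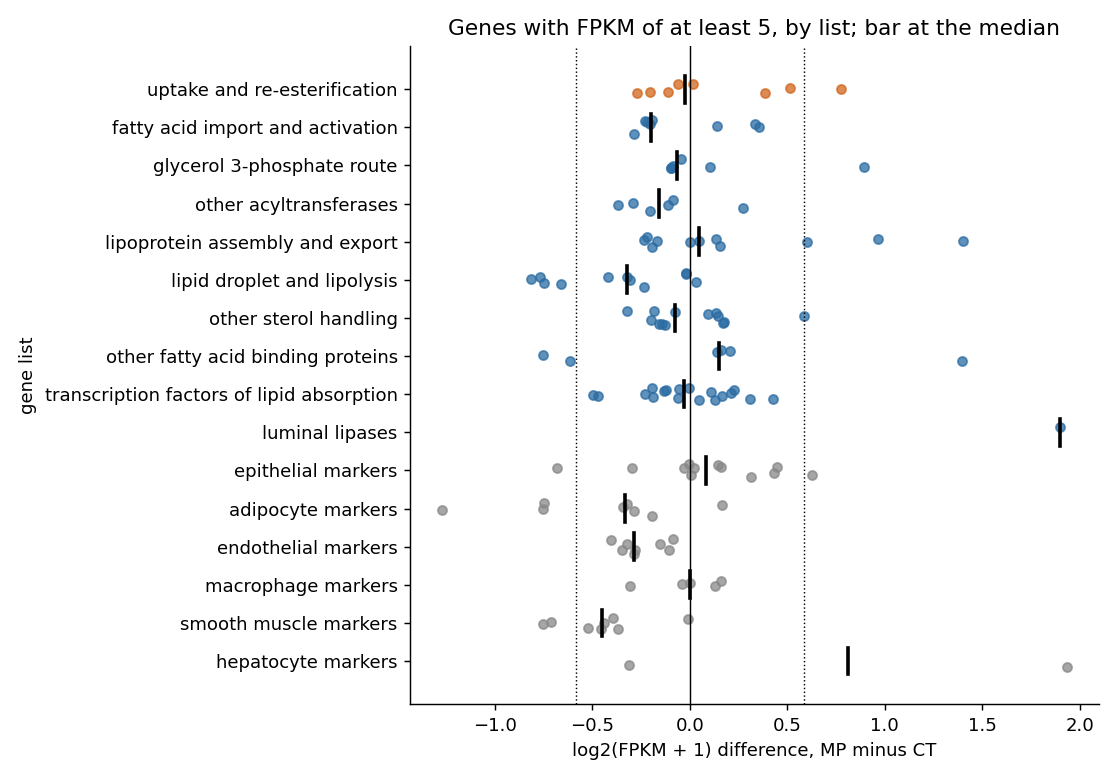
Differences MP minus CT on the log2(FPKM + 1) scale for genes with FPKM of at least 5: the 8 genes of uptake and re-esterification (orange), 9 lists of neighbouring steps (blue) and 6 marker lists (grey); vertical bars are medians and dotted lines mark 1.5-fold. The orange points run from -0.27 to 0.78 around a median of -0.02, while lipid droplet, adipocyte, endothelial and smooth muscle genes lie mostly left of 0.

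The tissue was checked against markers of its epithelium. Of 13 epithelial genes with a row, 12 had FPKM of at least 5; ANPEP, a brush border peptidase, was the highest at 1883 in CT and 2083 in MP. In MP, 8 of the 12 were higher and 4 lower (median 0.08), and the summed FPKM of the 13 was 6465 and 6720. ELF3, an epithelial transcription factor, was at least 1.5-fold higher (179 and 277) and MEP1B, a brush border protease, lower (201 and 125). All 8 smooth muscle genes were lower (median -0.45, summed FPKM 3623 and 2475), with ACTG2 at 1336 and 816 and CNN1 at 227 and 135. Over all 9913 genes 37.8% were higher and 62.2% lower, the median was -0.07, and 4.10% passed 1.5-fold. With values scaled so that the epithelial median lay at 0, Npc1l1 was at 0.70, MOGAT2 at 0.43 and ABCG8 at 0.31, and CD36 at -0.35, ABCG5 at -0.29 and DGAT2 at -0.19.

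**Figure D5:**
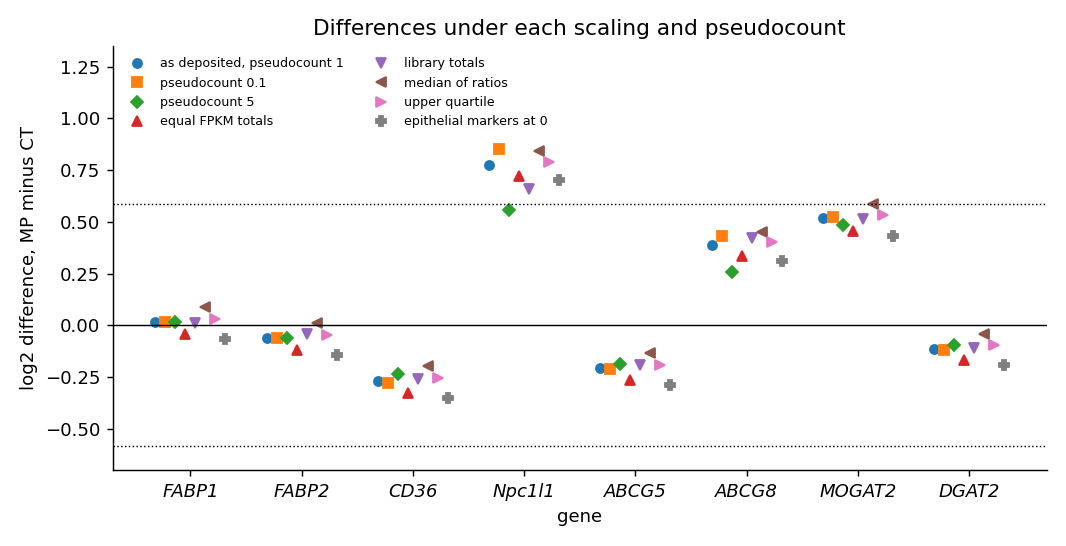
Difference MP minus CT (log2) of the 8 genes as deposited and under 7 alternative scalings or pseudocounts, one symbol each; dotted lines mark 1.5-fold. The points of FABP1 and FABP2 fall on both sides of 0, while those of the other 6 genes stay on one side.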

How the data were processed

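Per the labels' protocols, RNA was isolated with TRIzol and libraries were made with a kit described as one for small RNA. The submitters' processing notes list StringTie 1.3.1, HISAT2, Bowtie2, fastp 0.18.0 and DESeq2 without saying what each did. No genome build is named there; it was not given in the sources consulted. Per the file headers, the authors deposited FPKM and an estimated count per gene for each group. The third decimal of each value is 0, 3 or 7, which is what averaging 3 numbers gives. The table's 4 other value columns belong to no sample of this series and were not used.

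The members and gene lists were chosen with earlier results of these data known. The test written for values per library could not be run on group means. Differences are log2(FPKM + 1), MP minus CT, with a minimum FPKM of 5 in either group. Ratios used 3 times the mean counts, rounded, and were divided by the depth ratio of 0.929. Intervals (scipy 1.17.1, 95%) hold counting error alone, and PCR reads without molecular identifiers do not each stand for a molecule. Named genes are all members with a row and, from each list, the most abundant gene and up to 3 highest and 3 lowest past 1.5-fold. The endothelial, macrophage and pancreatic acinar lists were described without naming a gene. Other named genes were chosen after their values were seen. The pairs of genes were not in the written plan. Of the 8 members, 7 had an NCBI gene number, and all 7 were found in RefSeq (GRCg7b), which was used for names and gene order only. The 1.5-fold call and the interval of the count ratio were tried on simulated counts with counting error only, without variation between birds. The simulation did not cover the scalings, pair ratios or gene lists.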

Additional observations from a re-analysis of the deposited data

How the results depend on the processing

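No paired analysis was possible because each group has 1 mean column. Leaving out a library, edgeR, DESeq2 and a filter on counts per library could not be run either. For the 8 genes 64 differences were recomputed. The yardstick was the distance from the middle of a gene's log2 counting interval to its end. In 54 cases the difference moved by no more than that, and in 10 by more. Adding up the rows of a symbol, 1 of the 8 alternatives, could change nothing because each symbol has 1 row. The gene past 1.5-fold kept its direction. The number of the 8 genes at least 1.5-fold higher was 0 with a pseudocount of 5 and at 2-fold, and 2 with median-of-ratios scaling. Their median was 0.050 with median-of-ratios scaling and -0.11 with epithelial markers at 0, and that of the pathway genes -0.0086 and -0.16. At 2-fold, 3 pathway genes were higher and 0 lower. Over all genes, a pseudocount of 5 left 169 higher and 75 lower, and 2-fold left 79 and 25. Lower genes numbered 261 with library totals, where counts without length scaling put 11219 genes past the minimum. The number of lower genes was 259 with epithelial markers at 0 and 253 at a minimum FPKM of 1. Without a minimum 385 were higher and 268 lower. The shifts follow from each setting's construction; of the scalings, epithelial markers at 0 shifted the median gene most, by -0.0805. With 136 and 227 reads, Npc1l1 had the widest counting interval of the 8 genes, and variation between birds is unknown for all of them.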
